A study of Mus musculus with 7 samples.

Results

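The replication-dependent histone genes of the mouse *Hist1* cluster on chromosome 13 were examined for binding of RNA POLII, C-MYC and SOX2 in immortalized multipotent otic progenitor (iMOP) cells. The cluster was taken by position, as every peak that overlapped chr13:21700000-22200000 (window 1) or chr13:23450000-23900000 (window 2) on mm9. The windows cover 950 kb and held 312 of the 238420 peaks in 6 peak lists. Merging peaks that overlapped across the lists gave 94 regions, 47 in each window, of 115440 regions in the genome. The 1.25 Mb between the windows, called the gap here, held 34 peaks in 24 regions, and the rest of chromosome 13 held 11098 peaks in 5561 regions.

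iMOP cells are a mouse line derived from SOX2-expressing progenitors of the embryonic cochlea by infection with a *c-Myc* retrovirus. All libraries came from cells growing as floating otospheres in DMEM/F12 with B27 and 20 ng/ml of bFGF, so every group shared the *c-Myc* infection and the growth factor, and no untreated or arrested cells were compared. Chromatin was precipitated with an antibody against RNA polymerase II, C-MYC or SOX2, in 2 biological replicates, and an input DNA sample was not analysed here. How the replicates relate to separately derived cell lines is not given in the sources used here, and tests measure the spread between these libraries. Between 26637 and 53528 peaks were listed per library, with 1705241 to 4488517 tags, a tag being a sequenced read counted within a peak.

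Replication-dependent histone genes encode the core histones H2A, H2B, H3 and H4 and the linker histone H1 that package newly made DNA. They are transcribed by POLII mainly in S phase, lack introns, and give transcripts that end in a stem-loop in place of a poly(A) tail. NPAT, a coactivator that gathers at these clusters in histone locus bodies, links their transcription to cyclin E and CDK2. C-MYC is a basic helix-loop-helix factor that binds the E box CACGTG with its partner MAX, and SOX2 is an HMG-box factor that marks neurosensory progenitors of the ear.

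Of the 54 protein-coding *Hist1* genes on chromosome 13 in RefSeq (GRCm38.p6), 6 encode H1, 13 H2A, 15 H2B, 9 H3 and 11 H4. They follow each other in 2 runs. The first run, from *H2bc13* to *H2bc11*, has 23 histone genes, and the second, from *H4c8* to *H2ac1*, has 31. Other protein-coding genes lie within the runs, 3 in the first and 6 in the second, so a peak in the windows need not belong to a histone gene. Between the runs lie 41 protein-coding genes, of which 35 are vomeronasal receptor genes. This order comes from another build than the peaks and gave no gene a place under a peak, so the name of the windows rests on their mm9 positions alone.

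The promoters show which letters the factors could meet at these genes. The RefSeq table held 52 promoter windows for 51 of the 54 genes, each from 250 bases before to 50 bases after the start, and 32851 windows for all genes. Motifs were searched on both strands. The TATA box TATAAA was in 59.6% of the *Hist1* windows and in 13.6% of all windows. The CCAAT box, bound by NF-Y, was in 84.6% and 37.4%. Each H1, H2A, H2B and H3 window held a CCAAT box, and 3 of the 11 H4 windows did. The octamer ATTTGCAT, bound by POU factors such as OCT1, was in 5 of 13 H2A and 6 of 15 H2B windows and in none of the others, for 21.2% of the *Hist1* windows against 1.74% of all windows. The E box CACGTG was in 0 of 52 *Hist1* windows and in 7.15% of all windows. The SOX words CATTGT or CTTTGT were in 26.9% and 28.6%, close to the background. These are matches of letters and say nothing on their own about binding.

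For each histone class, 1 promoter that holds several of these words is shown. Each sequence is the 150 bases before the RefSeq start on chromosome 13 of GRCm38.p6, plus strand, 5′ to 3′, with the matched words of either strand in capitals. No peak was placed on any of them.
H1f1 (Hist1h1a, H1): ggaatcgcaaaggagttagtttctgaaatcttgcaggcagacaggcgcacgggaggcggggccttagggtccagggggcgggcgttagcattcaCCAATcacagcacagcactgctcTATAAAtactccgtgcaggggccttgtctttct
H2ac4 (Hist1h2ab, H2A): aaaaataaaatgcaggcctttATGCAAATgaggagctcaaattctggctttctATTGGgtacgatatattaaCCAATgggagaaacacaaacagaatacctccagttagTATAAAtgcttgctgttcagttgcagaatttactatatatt
H2bc3 (Hist1h2bb, H2B): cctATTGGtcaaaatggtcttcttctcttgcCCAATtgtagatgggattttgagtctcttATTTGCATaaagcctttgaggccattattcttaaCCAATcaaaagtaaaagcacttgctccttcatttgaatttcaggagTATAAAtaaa
H3c2 (Hist1h3b, H3): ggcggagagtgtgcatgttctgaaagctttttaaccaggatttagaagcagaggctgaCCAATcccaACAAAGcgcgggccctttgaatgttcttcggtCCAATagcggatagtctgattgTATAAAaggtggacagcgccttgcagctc
H4c4 (Hist1h4d, H4): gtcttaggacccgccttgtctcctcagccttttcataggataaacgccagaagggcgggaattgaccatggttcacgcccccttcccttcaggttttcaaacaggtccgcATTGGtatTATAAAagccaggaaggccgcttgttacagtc

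The POLII libraries differed from each other before the cluster is considered. Of the POLII replicate 1 peaks on the rest of chromosome 13, 8.88% overlapped a POLII replicate 2 peak (95% interval 7.85 to 9.999). The SOX2 replicates also differed, since 41.2% of the SOX2 replicate 1 peaks there overlapped SOX2 replicate 2 (38.9 to 43.5) and 54.1% overlapped POLII replicate 2 (51.7 to 56.4). Of the same SOX2 replicate 1 peaks, 57.4% overlapped C-MYC replicate 1 and 58.7% C-MYC replicate 2. The C-MYC replicates were close, with 84.8% overlap (83.1 to 86.4). Results are therefore given per library, and the means over libraries also without POLII replicate 1. Whether a library carries the label of another was not tested, and the names POLII and SOX2 replicate 1 and 2 are used as the labels give them.

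Peaks were dense in the histone windows in all libraries but POLII replicate 1. POLII replicate 2 had 59 peaks there, or 62.1 per Mb, against 12.4 per Mb on the rest of chromosome 13. C-MYC had 64.2 and 68.4 peaks per Mb in replicates 1 and 2, against 15.9 and 17.1. SOX2 had 57.9 and 53.7 peaks per Mb, against 15.8 and 11.001. In these 5 libraries the windows held from 3.65 to 5.02 times the density of the rest of the chromosome. POLII replicate 1 had 22.1 peaks per Mb in the windows and 24.3 outside, 0.91 times the density.

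The gap was the sparse stretch between them. It held 3 peaks of POLII replicate 2, 3 of each C-MYC replicate, and 1 and 4 of the SOX2 replicates, or 0.80 to 3.2 per Mb. POLII replicate 1 held 20 peaks in the gap, 16 per Mb, and 19 of the 24 gap regions were peaks of that library alone.

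**Figure D1:**
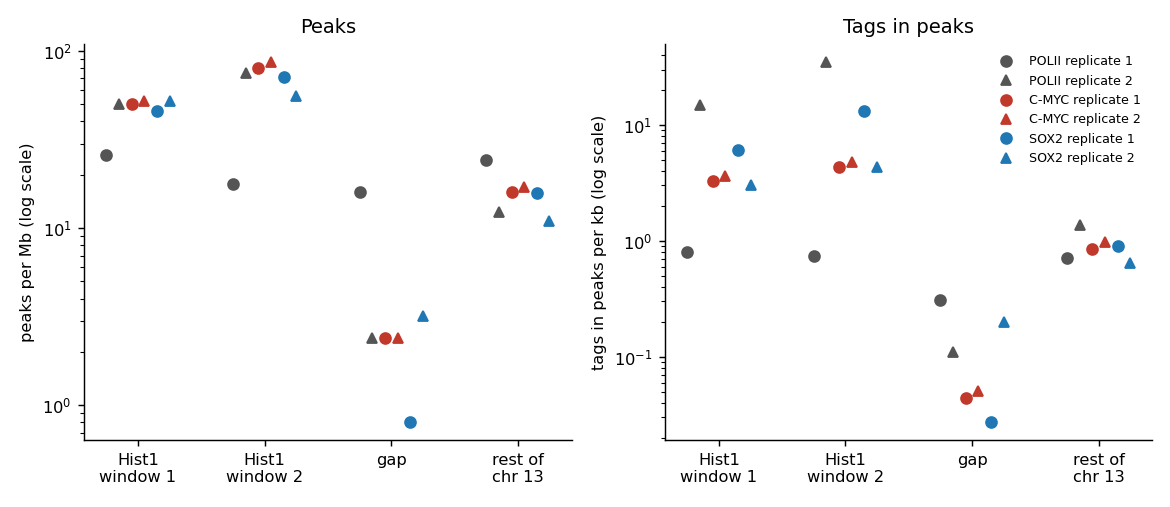
Peaks per Mb (left) and tags in peaks per kb (right) in the histone windows, the gap and the rest of chromosome 13, on log axes, with 1 point per library (circles, replicate 1; triangles, replicate 2). The 5 libraries other than POLII replicate 1 lie at 46.0 to 86.7 peaks per Mb in the windows and at 3.2 or fewer in the gap, and tags per kb are not scaled for depth, so they compare places within a library.

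The tags in these peaks separated the libraries further. POLII replicate 2 held 24.3 tags per kb in the windows against 1.36 on the rest of chromosome 13, a ratio of 17.8. The ratio was 10.4 for SOX2 replicate 1 and 5.72 for SOX2 replicate 2. It was 4.41 and 4.30 for the C-MYC replicates, close to their ratios of peak density, and 1.09 for POLII replicate 1. The windows thus took 0.514% of all tags in POLII replicate 2 peaks, 0.325% and 0.195% in SOX2, 0.126% and 0.125% in C-MYC, and 0.0431% in POLII replicate 1.

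Over the 6 libraries the log2 ratio of tag density was 2.40 ± 1.37 (SD, n = 6) and above 0 in 6 of 6, with an exact sign-flip p of 0.03125, the smallest 6 libraries can give, and an adjusted p of 0.0625. The log2 ratio of peak density was 1.73 ± 0.93 (SD, n = 6), higher in 5 of 6 libraries (exact permutation p = 0.0625, adjusted p = 0.0625). Neither passed 0.05 after adjustment. The sign-flip tests here and below take the 6 libraries as independent, though they are 2 replicates for each of 3 antibodies. Without POLII replicate 1 the means were 2.86 and 2.10, and 5 libraries cannot give a p under 0.0625.

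The SOX2 libraries held a mean of 0.260% of their tags in the windows and the C-MYC libraries 0.126%. Both SOX2 values were above both C-MYC values, but 2 against 2 libraries cannot give an exact permutation p under 0.333, which is the p of this difference. The difference of 0.135 percentage points was 0.0697 without SOX2 replicate 1 and 0.200 without SOX2 replicate 2.

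POLII replicate 2 peaks in the windows held many tags. Tall and tallest are used here for the tags of a peak, counted over its whole length, and not for its height. The median held 313 tags against 52 on the rest of chromosome 13, and for SOX2 replicate 1 it held 129 against 28. The other libraries showed smaller ratios, with medians of 46 against 30 and 40 against 31 tags for C-MYC, 58 against 45 for SOX2 replicate 2 and 30 against 22 for POLII replicate 1. The log2 ratio of the median was 1.10 ± 1.02 (SD, n = 6), higher in 6 of 6 libraries (exact permutation p = 0.03125, adjusted p = 0.0625), and its mean was 1.23 without POLII replicate 1. It was 0.53 when only the higher-scoring 50% of every list was kept. Among the tallest 1% of each list by tags were 7 window peaks of POLII replicate 2, against 3 of 1423 on the rest of the chromosome, and 6 of SOX2 replicate 1, against 10 of 1822. The other 4 libraries had 0 window peaks in that class.

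Fold enrichment, the authors' ratio of a peak to its background, did not follow the tags. Its median was 8.25 in the windows and 8.2 outside for POLII replicate 2, and 9.26 and 9.395 for SOX2 replicate 1, the libraries with the tallest peaks. C-MYC had 10.06 against 11.475 and 9.46 against 11.01, SOX2 replicate 2 had 6.48 against 7.02, and POLII replicate 1 had 7.67 against 7.74. The log2 ratio was −0.09 ± 0.10 (SD, n = 6) and above 0 in 1 of 6 libraries (exact permutation p = 0.0625, adjusted p = 0.0625). The mean was −0.11 without POLII replicate 1, and −0.02 against all other chromosomes in place of the rest of chromosome 13. Over whole lists, tags and fold enrichment had a Spearman rho of 0.25 for POLII replicate 2 and from −0.54 to −0.06 for the other libraries. A weak or negative relation was therefore not particular to the windows.

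Peaks in the windows were also longer in 5 of 6 libraries. Medians were 978 against 723 bases for POLII replicate 2, 1042 against 657 for SOX2 replicate 1, 746 against 627.5 and 733 against 667 for C-MYC, 607 against 558 for POLII replicate 1, and 700 against 745 for SOX2 replicate 2. The log2 ratio was 0.25 ± 0.27 (SD, n = 6; exact permutation p = 0.0625, adjusted p = 0.0625). The mean was 0.28 without POLII replicate 1, 0.11 against all other chromosomes and 0.13 with the higher-scoring 50% of every list. A longer peak holds more tags, and across window peaks of a library tags and length had a Spearman rho of 0.71 to 0.90, a description over 21 to 65 peaks that share a library.

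Window 2 carried more of the signal than window 1. POLII replicate 2 had 34 peaks and 34.8 tags per kb in window 2, and 25 peaks and 14.8 tags per kb in window 1. SOX2 replicate 1 had 13.2 and 6.05 tags per kb. C-MYC had 4.31 and 3.31 tags per kb in replicate 1 and 4.79 and 3.59 in replicate 2, and SOX2 replicate 2 had 4.36 and 3.04. POLII replicate 1 had 0.738 and 0.806 tags per kb, so 5 of 6 libraries were higher in window 2.

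Set against the genome in bins of 500 kb, the bin from chr13:23500000 to 23999999 ranked 1 of 3840 by POLII replicate 2 tags and 3 of 4306 by SOX2 replicate 1 tags. SOX2 replicate 2 placed it at 57 of 4054, the C-MYC replicates at 365 of 4008 and 350 of 4054, and POLII replicate 1 at 2718 of 4766. The bin from chr13:21500000 to 21999999, which holds part of window 1, ranked lower by tags in 5 libraries, at 75 for POLII replicate 2, 144 and 432 for SOX2, and 1159 and 1086 for C-MYC. It ranked higher for POLII replicate 1, at 1436. By number of summits the window 2 bin ranked 9 for POLII replicate 2, 7 and 4 for SOX2, 25 and 13 for C-MYC, and 2685 for POLII replicate 1. Both C-MYC replicates and SOX2 replicate 2 thus ranked higher there by number of summits than by tags, as did POLII replicate 1 by a small margin. POLII replicate 2 and SOX2 replicate 1 ranked higher by tags. By number of summits the window 1 bin ranked 242 of 3840 for POLII replicate 2, and 314 of 4306 and 75 of 4054 for SOX2. It ranked 1029 of 4008 and 863 of 4054 for C-MYC, and 753 of 4766 for POLII replicate 1. High summit ranks were thus a trait of the window 2 bin more than of the window 1 bin, except in POLII replicate 1.

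**Figure D2:**
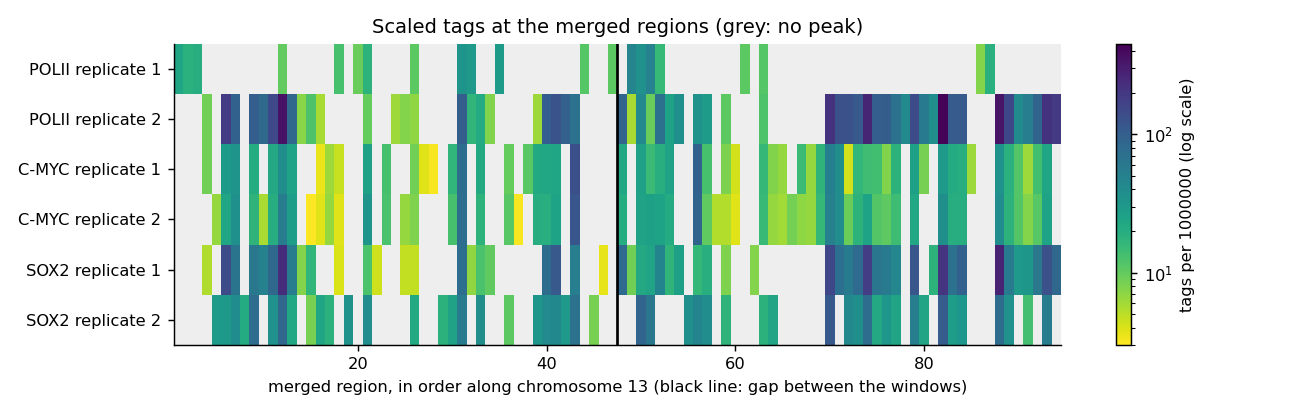
Scaled tags, per 1000000 tags in the peaks of the list (colour, log scale) at the 94 merged regions of the windows in order along chromosome 13, with 1 row per library, grey where no peak was called and a black line at the gap. POLII replicate 2 and SOX2 replicate 1 are darkest at the same regions, the 2 C-MYC rows match each other, and POLII replicate 1 has a peak at 21 of the 94.

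The regions fell into a widely shared set and a private set. Of the 94, 29 (30.9%) had a peak in 5 lists, and 27 of these (28.7% of the 94) lacked only POLII replicate 1. A further 6 (6.38%) had a peak in all 6 lists, and 27 (28.7%) in 1 list. On the rest of chromosome 13, 9.40% of regions were in 5 lists, 8.16% lacked only POLII replicate 1, 2.16% were in all 6 lists and 59.7% in 1 list. Of the regions with a peak in 1 list, POLII replicate 1 gave 10 of 27 in the windows and 2162 of 3319 on the rest.

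The region with the highest mean share of tags was chr13:23710921-23714831. It held 1919 tags in POLII replicate 2, the 21st highest of 31796 peaks in that list, and no POLII replicate 1 peak. C-MYC had 86 and 118 tags there and SOX2 had 575 and 188. Scaled to 1000000 tags in the peaks of each list (scaled tags), this was 427.5 for POLII replicate 2, 30.1 and 37.4 for C-MYC, and 208.5 and 105.4 for SOX2. Both SOX2 values were above both C-MYC values, and the POLII replicate 2 value was above all of them. Fold enrichment there was 4.59 for POLII replicate 2 and 6.35 for SOX2 replicate 1, below their window medians of 8.25 and 9.26.

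The second, chr13:21870617-21872835 in window 1, was 1 of the 6 regions in all lists. It held 17 and 1584 tags in POLII, 110 and 170 in C-MYC, and 641 and 154 in SOX2. The third, chr13:23830248-23832774, held 1558 tags in POLII replicate 2, 99 and 121 in C-MYC, and 748 and 136 in SOX2. Its SOX2 replicate 1 peak ranked 16 of 39878 by tags, while SOX2 replicate 2 had its top window peak, with 199 tags, at chr13:23622403-23623952, ranked 687 of 26637.

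That peak lies in the fourth region, chr13:23621995-23624555, with 975 tags in POLII replicate 2, 147 and 159 in C-MYC, and 427 and 199 in SOX2. The fifth, chr13:23646472-23648605, held 1201 tags in POLII replicate 2, 40 and 77 in C-MYC, and 496 and 135 in SOX2. In the sixth, chr13:23851775-23854989, POLII replicate 2 held 961 tags, C-MYC 67 and 78, and SOX2 358 and 98. In scaled tags SOX2 was 154.8 and 111.5 at the fourth region, 179.8 and 75.7 at the fifth and 129.8 and 54.9 at the sixth, so SOX2 replicate 2 was below SOX2 replicate 1 at each, by least at the fourth.

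The seventh region, chr13:22141620-22143644, had the opposite order. C-MYC held 379 and 374 tags, the tallest C-MYC window peaks of both lists, and SOX2 145 and 123, with 309 in POLII replicate 2. In scaled tags, C-MYC was 132.6 and 118.6, SOX2 52.6 and 68.9, and POLII replicate 2 68.8. The C-MYC peaks ranked 453 of 42435 and 610 of 44146, so the tallest C-MYC peaks of the cluster stood lower in their lists than those of POLII replicate 2 and SOX2 replicate 1 did in theirs.

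Of the remaining top 10, chr13:21806978-21810283 held 831 tags in POLII replicate 2, 84 and 74 in C-MYC, and 394 and 54 in SOX2. The region chr13:23673020-23674561 held 625, 74 and 70, and 326 and 94 tags in the same order. At chr13:22036220-22037845, which was in all 6 lists, POLII held 57 and 439 tags, C-MYC 211 and 230, and SOX2 205 and 99. The last spanned 33.4 to 97.8 scaled tags in the 6 libraries, a narrower span than at the other 9 regions. In the order named, POLII replicate 2 fold enrichment at the 10 regions was 4.59, 4.95, 5.91, 9.02, 7.58, 6.64, 9.9, 6.47, 13.22 and 12.04. The window median was 8.25, so a high rank by tags did not mean a high fold enrichment.

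The other 4 regions in all 6 lists were low. At chr13:21988476-21989640, POLII held 30 and 44 tags, C-MYC 74 and 107, and SOX2 34 and 69. At chr13:22010647-22011445, all 6 values lay between 13 and 38 tags. At chr13:23492415-23494713, POLII held 61 and 182 tags, C-MYC 73 and 79, and SOX2 60 and 158. At chr13:23502502-23505458, POLII held 83 and 42 tags, C-MYC 42 and 82, and SOX2 66 and 111, and here POLII replicate 1 had its tallest window peak, ranked 2346 of 53528. Over the 10 regions with a peak of both POLII libraries, the Pearson correlation of their log2 scaled tags was −0.26.

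C-MYC and SOX2 met at the same regions. Counting a factor where both of its replicates had a peak, 53 of 94 regions had C-MYC, 34 had SOX2 and 33 (35.1%) had both, against 11.6% with both on the rest of chromosome 13. Of the 34 SOX2 regions 97.1% had C-MYC, against 85.9% on the rest. Of the 53 C-MYC regions 62.3% had SOX2, against 41.7%. All 33 regions with both factors also had a POLII replicate 2 peak, against 89.1% of 644 on the rest of the chromosome. These shares depend on what counts as bound. With a peak in either replicate 53 regions had both factors, and 19 did when only the higher-scoring 50% of every list was kept.

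With SOX2 in both replicates and no C-MYC peak there were 0 of 94, against 56 of 5561 on the rest of chromosome 13. Read from 1 SOX2 library at a time, SOX2 replicate 1 had 10 such regions and SOX2 replicate 2 had 6. With C-MYC in both replicates and no SOX2 peak there were 6 of 94 (6.38%), close to the 7.05% on the rest of chromosome 13. None of the 6 had a POLII peak, and on the rest of the chromosome 5.38% of regions had C-MYC and neither SOX2 nor POLII. One lay in window 1, chr13:22002812-22003635, with 37 and 40 C-MYC tags. The other 5 lay in window 2, and 4 of them followed each other closely between chr13:23595778 and 23618816. Their C-MYC tags were 19 and 19, 42 and 22, 19 and 21, and 49 and 50, so these were low peaks found by both C-MYC libraries. These 6 were picked out after their values were seen.

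Pairs of libraries were then compared at the regions where both had a peak, in scaled tags. POLII replicate 2 and SOX2 replicate 1 followed each other closely, with a Pearson correlation of log2 values of 0.96 over 50 window regions and 0.86 over 981 regions on the rest of chromosome 13. The median log2 ratio of POLII replicate 2 to SOX2 replicate 1 was 0.55 in the windows and −0.16 on the rest. POLII replicate 2 to SOX2 replicate 2 gave 1.40 over 39 window regions and −1.41 over 765 on the rest, with a correlation of 0.52. POLII replicate 2 to C-MYC gave 2.04 over 44 window regions for replicate 1 and 2.12 over 45 for replicate 2, against −0.16 and −0.15 on the rest. The correlations of POLII replicate 2 with C-MYC were 0.36 and 0.46 in the windows and 0.73 in both cases on the rest. Regions are not independent replicates and share their libraries, so these values describe the lists and carry no test.

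**Figure D3:**
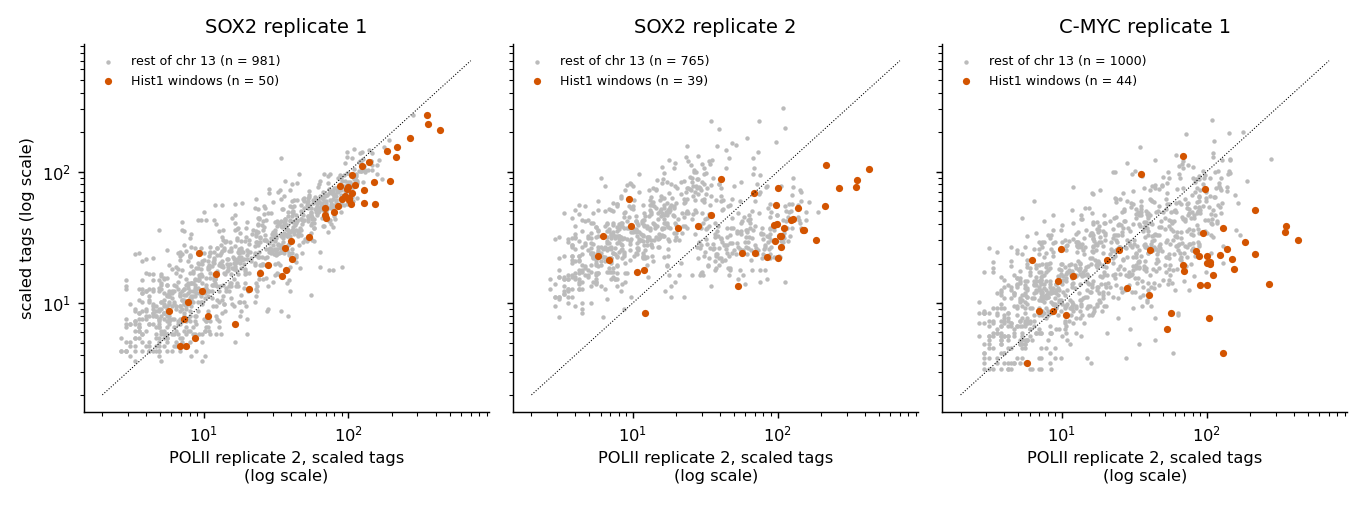
Scaled tags (per 1000000 tags in the peaks of the list) of POLII replicate 2 (x, log scale) against SOX2 replicate 1, SOX2 replicate 2 and C-MYC replicate 1 (y, log scale) at regions where both libraries had a peak, for the histone windows (orange) and the rest of chromosome 13 (grey), with a dotted line of equal values. The tall window regions extend the SOX2 replicate 1 cloud upward at a Pearson correlation of 0.96. Most window regions lie below the line against C-MYC replicate 1, at a median log2 ratio of 2.04.

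The SOX2 replicates disagreed in a direction that differed between the windows and elsewhere. SOX2 replicate 1 was above SOX2 replicate 2 at 24 of 34 shared window regions, with a median log2 ratio of 0.91. On the rest of chromosome 13 it was above at 28.8% of 750 regions, with a median of −0.85. The C-MYC replicates had a median log2 ratio of 0.03 over 53 window regions and a correlation of 0.95. The estimates of SOX2 below are therefore given with the value of each SOX2 library.

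Replicates overlapped more in the windows than outside in 5 of the 6 directions. The share of SOX2 replicate 1 peaks on SOX2 replicate 2 was 35 of 55 (63.6%, 95% interval 49.6 to 76.2), against 41.2% on the rest of chromosome 13, and in the other direction 36 of 51 (70.6%, 56.2 to 82.5), against 59.1%. C-MYC shared 55 of 61 (90.2%, 79.8 to 96.3) and 56 of 65 (86.2%, 75.3 to 93.5), against 84.8% and 78.9%. POLII replicate 1 shared 9 of 21 peaks (42.9%, 21.8 to 66.0) with replicate 2, against 8.88%, and POLII replicate 2 shared 9 of 59 (15.3%, 7.22 to 27.0), against 17.4%. The mean difference was 13.1 percentage points (SD 13.1, from −2.17 to 34.0), over 6 directions that come from 3 replicate pairs and are not separate measurements. For comparison, 51 of 55 SOX2 replicate 1 peaks (92.7%, 82.4 to 98.0) lay on a POLII replicate 2 peak, against 54.1% outside. SOX2 replicate 1 thus overlapped POLII replicate 2 more often than it overlapped SOX2 replicate 2, in the windows and outside. This was not particular to POLII replicate 2. Of the SOX2 replicate 1 peaks, 74.5% and 80% overlapped C-MYC replicates 1 and 2 in the windows, and 57.4% and 58.7% outside. Outside the windows both C-MYC shares were above that of POLII replicate 2. SOX2 replicate 2 also has the shortest list, with 26637 peaks.

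Summits, the base of highest signal in a peak, were compared with the nearest POLII replicate 2 summit in the same merged region. The median distance in the windows was 37 bases for SOX2 replicate 1, 51 for SOX2 replicate 2, and 78 and 68 for C-MYC. On the rest of chromosome 13 the medians were 34, 55, 53.5 and 52.5 bases. Within 200 bases lay 86.3% of 51 SOX2 replicate 1 summits and 75.6% of 41 SOX2 replicate 2 summits, and 67.4% of 46 and 74% of 50 C-MYC summits. Each of these 4 shares was below its value on the rest of the chromosome, which was 88.6%, 83.7%, 82.7% and 82.4% in the same order.

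SOX2 and C-MYC tags were then compared region by region. The fit used the 14520 regions of the genome with a peak in all 4 libraries, of which 33 were in the windows. None of the 33 passed an adjusted p of 0.05 by edgeR's quasi-likelihood test, and none of the 14520 did either (0% called). At an unadjusted p under 0.05 there were 11 of 33 in the windows (33.3%) and 10.6% of all regions tested. By DESeq2 the fit called 1 of the 33, with 38 called in the genome.

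The estimates of the 33 regions leaned towards SOX2. The log2 ratio of SOX2 to C-MYC was above 0 at 29 of 33 and at 56.7% of all regions tested, and its median was 1.30 against 0.13. With SOX2 replicate 1 alone it was above 0 at 26 of 33, and with SOX2 replicate 2 alone at 25. Both SOX2 libraries were above both C-MYC libraries, after TMM scaling, at 20 of 33 regions, against 24% of all regions tested. Both were below at 3 of 33, against 23.4%. The size of the lean depended on the SOX2 library, with a median log2 ratio to the mean of C-MYC of 1.71 for SOX2 replicate 1 and 0.53 for SOX2 replicate 2, against 0.02 and 0.01 over all regions tested. The tags of each library come from its own called peaks, so they span different lengths within a region. Median lengths of window peaks were 1042 and 700 bases for SOX2 replicates 1 and 2, and 746 and 733 for C-MYC. How far peak length adds to the lean was not tested.

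**Figure D4:**
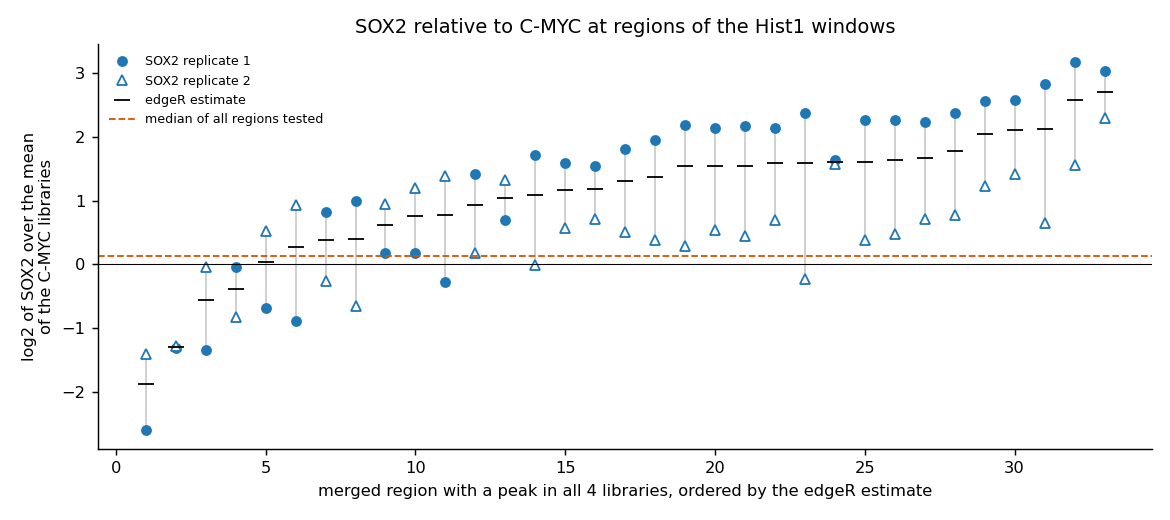
Log2 ratio of each SOX2 library to the mean of the C-MYC libraries, scaled by TMM, at the 33 window regions with a peak in all 4 libraries, ordered by the edgeR estimate (black bars). SOX2 replicate 1 (filled circles) lies at a median of 1.71 and SOX2 replicate 2 (open triangles) at 0.53, and the dashed line marks the median estimate of 0.13 over all 14520 regions tested.

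The highest estimate was at chr13:23634417-23636788. C-MYC held 12 and 29 tags there, SOX2 158 and 78, and POLII replicate 2 578. The log2 ratio was 2.70 ± 0.55 (SE, edgeR adjusted p = 0.462), with 3.04 for SOX2 replicate 1 and 2.29 for SOX2 replicate 2. This was the region called by DESeq2, at 2.69 with a DESeq2 adjusted p of 0.0236, and DESeq2 called 0.186% of all regions tested as higher in SOX2. Next was chr13:23646472-23648605 at 2.57 ± 0.70 (SE, edgeR adjusted p = 0.462), followed by chr13:23830248-23832774 at 2.12 ± 0.79 (SE, edgeR adjusted p = 0.464). The region with the most POLII, chr13:23710921-23714831, was at 2.05 ± 0.60 (SE, edgeR adjusted p = 0.462). For SOX2 replicates 1 and 2 these 3 regions gave 3.17 and 1.56, 2.83 and 0.64, and 2.57 and 1.22, so SOX2 replicate 1 was the higher at each.

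On the C-MYC side lay chr13:23524184-23525330, where C-MYC held 274 and 284 tags, SOX2 44 and 84, and POLII replicate 2 157. Its log2 ratio was −1.88 ± 0.53 (SE, edgeR adjusted p = 0.462). The tall C-MYC region chr13:22141620-22143644 was at −1.30 ± 0.41 (SE, edgeR adjusted p = 0.462). SOX2 replicates 1 and 2 gave −2.60 and −1.40 at the first and −1.32 and −1.29 at the second. The other 2 below 0 were regions in all 6 lists, chr13:21988476-21989640 at −0.56 ± 0.53 and chr13:22036220-22037845 at −0.38 ± 0.44 (SE), with −1.34 and −0.05, and −0.04 and −0.82, for the SOX2 replicates. At 3 of these 4 regions, all but chr13:21988476-21989640, both SOX2 libraries were below both C-MYC libraries.

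Zeros enter when a region needs a peak in only 2 of the 4 libraries. Then 6 of 59 window regions were called, all higher in C-MYC, against 23.7% of 40794 regions of the genome called as higher in C-MYC, so the share in the windows was below the background. In that fit the log2 ratio was above 0 at 37 of the 59 window regions, and the share above 0 over the 40794 regions was not counted. Its median was 0.58 in the windows, against −0.55 over the 40794 regions. Both medians were lower than in the main fit, where they were 1.30 and 0.13. The number of calls rests on the SOX2 replicates. Without SOX2 replicate 1 the fit called 24 of the 33 regions, 20 of them higher in SOX2, with 67.3% of the genome's regions called. Without SOX2 replicate 2 it called 28, 24 of them higher in SOX2, with 57.7% called. In those fits the lone SOX2 library is assumed to vary like the C-MYC libraries.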

How the data were processed

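ChIP-seq of iMOP cells was analysed for 3 antibodies (POLII, C-MYC, SOX2) in 2 biological replicates. The 1 input DNA sample has no peak list and was not analysed here. The authors called peaks per replicate and deposited 1 list for each. Start, end, length and summit are positions and sizes in bases on mm9, per the submitters' processing notes. The tags of a peak are raw counts as deposited. The deposited score is 10 times the −log10 of a p-value. The fold enrichment is a linear ratio deposited by the authors, and its background, the aligner and the peak caller are not given in the sources used here. Mapped reads per library are not in these lists, so tags within peaks stand for the depth, and intervals (exact Clopper-Pearson, 95%) cover counting error only.

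A peak was a member when it overlapped a window by at least 1 bp. Overlapping peaks of the 6 lists were merged into regions, and a region took the summed tags of its peaks. Scaled tags are per 1000000 tags in the peaks of a list. Ratios of windows to the rest of chromosome 13 were tested over the 6 libraries with a two-sided exact sign-flip permutation test, adjusted by Benjamini-Hochberg over the 5 ratios. Tag counts of C-MYC and SOX2 were compared with edgeR 4.0.16 (quasi-likelihood, TMM, totals of tags in peaks as library sizes) over all regions with a peak in all 4 libraries, and with DESeq2 1.42.0 as an alternative. Python 3.11.15, pandas 2.3.3, scipy 1.17.1 and R 4.3.3 were used. Overlap counts equalled those of bedtools 2.31.1 for 30 of 30 ordered pairs of lists. In counts simulated for the SOX2 against C-MYC comparison (14520 regions, 200 of them changed by 3 on the log2 scale), 98.5% of the changed regions were called. The simulated counts varied less between libraries than the real ones, for which edgeR's common dispersion, a measure of that spread, was 0.146. The planted change was also larger than the highest window estimate, 2.70. This recovery therefore does not give the power of the fit on the real libraries, and the absence of calls does not show equal signal.

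The regions named are the 10 with the highest mean of scaled tags over the 6 libraries, those with a peak in all 6 lists, those past the threshold between SOX2 and C-MYC, and the top peak of each list. Other regions were named after their values were seen. No mm9 annotation was used, so no gene was placed on a peak. Gene order and promoter letters are from RefSeq (GRCm38.p6) and were not joined to positions. The windows, the members and the motifs were chosen with earlier results of these data known.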

Additional observations from a re-analysis of the deposited data

How the results depend on the processing

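The 5 ratios of the windows to the rest of chromosome 13, the difference in replicate overlap and the difference in the share of tags between SOX2 and C-MYC kept their direction under each alternative run (the 50% of peaks with the highest score, summits in a window, all other chromosomes in place of chromosome 13, each window alone, and each library left out, where these applied). Their p-values say nothing on stability where a library was left out or 2 libraries were set against 2, since those designs cannot pass 0.05, and replicate overlap had no test. Leaving out libraries gave log2 ratios from 1.61 to 2.10 for peak density, from 2.05 to 2.86 for tag density, from 0.80 to 1.25 for median tags, from −0.11 to −0.07 for fold enrichment and from 0.17 to 0.32 for length. Against all other chromosomes fold enrichment moved to −0.02 (exact permutation p = 0.594) and length to 0.11 (exact permutation p = 0.3125), and with the higher-scoring 50% of peaks median tags moved to 0.53 and fold enrichment to −0.18. The count of regions with both C-MYC and SOX2, 33, moved to 53 with a peak in either replicate and to 19 with the higher-scoring 50% of peaks, and ranged from 33 to 40 with a library left out. The number of window regions that differed between SOX2 and C-MYC, 0 in edgeR, was 1 by DESeq2 and 6 with a peak in at least 2 of the 4 libraries, and ranged from 0 to 28 with a library left out. Counts of regions with SOX2 and no C-MYC ranged from 0 to 16 over all alternatives, and those with C-MYC and no SOX2 from 0 to 13. The cause of these moves was not tested. In all, 17 of the 108 recomputed values, all of them counts of regions, moved by over 1.5 times, or to or from 0. A count has no direction to reverse, but the side of the calls did differ. The 1 call by DESeq2 was higher in SOX2, and the 6 calls with a peak in at least 2 of the 4 libraries were higher in C-MYC. Without TMM the median log2 ratio over all regions tested moved from 0.13 to 0.37 and that of the windows from 1.30 to 1.48, with 0 calls in both. The deviations of same-numbered C-MYC and SOX2 libraries from their group means correlated at 0.041 over regions. This value cannot tell whether same-numbered libraries shared a preparation, which was not tested. With the replicate number as a block, 0 of the 33 window regions and 7 of 14520 in the genome were called. Tags within peaks and 2 libraries per antibody limit the precision, and tags of a region without a called peak are unknown.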
